A study of Homo sapiens with 5 samples.

Results

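Mitochondrial ribosomal protein genes were examined for promoter occupancy by PHF8 in SKMEL-147 cells. Members were the protein-coding genes of GENCODE release 44, lifted to GRCh37 (hg19), whose symbol is MRPL or MRPS followed by a number and an optional letter. This rule, which uses names and no measured value, gave 78 genes of 20162 protein-coding genes, or of 64440 annotated genes of all kinds. SKMEL-147 is an established human melanoma line. Chromatin was immunoprecipitated with an anti-PHF8 antibody in 3 ChIP replicates, named A, B1 and B2, beside 2 input libraries, A and B. All 5 samples carry the same labels for line and antibody or input, so there is 1 condition and no comparison of treatments. Inputs enter only through the enrichment that the peak caller MACS computed against them. No source says that the replicates came from separate cultures, so the spread between them may be technical. B1 and B2 share a letter with a single input, B, and may not be independent of each other, although each SD and test treats A, B1 and B2 as separate.

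PHF8 is a Jumonji-type demethylase that removes methyl groups from lysine 9 of histone H3 and lysine 20 of histone H4, and its PHD finger binds trimethylated lysine 4 of histone H3, a mark of active promoters. The mitochondrial ribosome translates the few messages encoded by mitochondrial DNA, all of which specify subunits of the oxidative phosphorylation complexes. Its ribosomal RNAs come from mitochondrial DNA, whereas its proteins are encoded in the nucleus, made in the cytosol and imported, so many scattered promoters must supply 1 particle. Of the 78 members, 51 encode proteins of the large subunit and 26 proteins of the small subunit. MRPS30 and MRPS18A count with the large subunit, where their products sit in spite of the names. The remaining member, MRPS36, keeps its symbol although its product is now known as a component of the alpha-ketoglutarate dehydrogenase complex. The members lie on 21 chromosomes, with at most 8 on any of them.

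A minority of these genes, 17 of 78, carry the letters AAGATGGC, the core of the site of the transcription factor YY1, close behind the transcription start site (TSS). They are shown because this string was found in a larger share of members than of other genes. The 9 promoters shown are a choice from the 17 genes, ordered from high to low by mean percentile of PHF8 enrichment among bound protein-coding genes. MRPL49, with the match and a mean percentile of 89.9, is not among them. Each gene's enrichment was taken at the summit of its strongest promoter peak. In all 3 replicates that summit lay outside the sequence shown for each of the 9 genes. Each sequence runs from 50 bases before to 29 bases after the first base of the canonical transcript (GRCh37, the strand of the gene). The match is in capitals. For MRPS27 the strongest peak in B2 (chr5:71603708-71604229) did not reach the sequence shown. Its peaks in A and B1 covered that sequence, but their summits lay outside the canonical transcript, with PTCD2 starting 104 and 128 bp away.
MRPS27 (chr5:71616038-71616117, minus strand): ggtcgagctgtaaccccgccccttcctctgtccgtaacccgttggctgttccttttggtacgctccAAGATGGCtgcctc
MRPS24 (chr7:43909087-43909166, minus strand): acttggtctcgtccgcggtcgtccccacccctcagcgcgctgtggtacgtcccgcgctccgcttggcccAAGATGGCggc
MRPS7 (chr17:73257910-73257989, plus strand): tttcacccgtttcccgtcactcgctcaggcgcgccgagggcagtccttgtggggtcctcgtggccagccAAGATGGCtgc
MRPL42 (chr12:93861240-93861319, plus strand): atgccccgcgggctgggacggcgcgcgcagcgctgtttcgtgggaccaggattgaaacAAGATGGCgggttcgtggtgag
MRPL46 (chr15:89010590-89010669, minus strand): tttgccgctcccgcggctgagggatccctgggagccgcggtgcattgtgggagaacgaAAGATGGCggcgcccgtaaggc
MRPS30 (chr5:44808999-44809078, plus strand): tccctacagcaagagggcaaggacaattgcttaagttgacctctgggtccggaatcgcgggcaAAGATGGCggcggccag
MRPS10 (chr6:42185570-42185649, minus strand): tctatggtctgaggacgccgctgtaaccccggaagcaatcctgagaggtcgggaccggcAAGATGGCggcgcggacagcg
MRPL45 (chr17:36453084-36453163, plus strand): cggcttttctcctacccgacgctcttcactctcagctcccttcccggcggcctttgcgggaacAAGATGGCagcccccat
MRPS18A (chr6:43655499-43655578, minus strand): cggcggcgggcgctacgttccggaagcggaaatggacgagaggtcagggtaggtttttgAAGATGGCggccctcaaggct

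For contrast, 2 further promoters are shown over 120 bases before and 29 bases after the canonical start. MRPL37 had the highest PHF8 enrichment of all members relative to other genes, and MRPL28 was the only member without a peak in every replicate. Neither window holds the YY1 letters, the ETS or GABPA letters CCGGAAGT or the NRF1 core CGCATGCG, so no base is capitalised.
MRPL37 (chr1:54665720-54665869, plus strand): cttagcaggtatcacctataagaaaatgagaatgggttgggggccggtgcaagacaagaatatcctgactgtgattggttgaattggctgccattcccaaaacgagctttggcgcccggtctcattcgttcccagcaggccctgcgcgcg
MRPL28 (chr16:420509-420658, minus strand): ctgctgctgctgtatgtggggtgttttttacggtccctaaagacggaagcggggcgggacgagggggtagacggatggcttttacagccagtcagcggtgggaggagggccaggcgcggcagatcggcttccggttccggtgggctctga

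The first question was how many of these promoters PHF8 occupied. A gene was called bound when a listed peak lay within 1 kb of any of its annotated TSSs in all 3 replicates. By this measure 77 of 78 members were bound (98.7%). The same call held for 60.2% of all protein-coding genes, 12139 of 20162. Members had a peak in 78, 78 and 77 cases in replicates A, B1 and B2, and at no bound member was the summit supported by fewer than 30 fragments. The lists themselves held 21506, 20882 and 20120 peaks, and the weakest listed summit rested on 8, 8 and 10 fragments. Sequence composition bears on this count, because 74 of 78 members had CpG-island-like sequence around the gene start (94.9%), against 58.9% of all protein-coding genes. Among protein-coding genes with such a start, 80.8% were bound. Its part in the members' count was not tested. With the gene record's 5′ end as the sole TSS, 75 of 78 members were bound, against 54% of protein-coding genes.

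MRPL28, which encodes a large subunit protein conserved from bacteria, was the exception. Its strongest peak in A reached 8.96-fold (chr16:420314-420515, 22 fragments at the summit), and the one in B1 reached 4.78-fold (chr16:420616-420830, 16 fragments). No peak lay within reach in B2, where the nearest (23.0-fold) was 10245 bp from the gene's TSSs. The strongest peak in A and the peak in B1 did not overlap each other. Replicate A held 2 promoter peaks, and the weaker was not compared. Since the lists hold only called peaks, the level in B2 is not known. MRPL28 was also 1 of 4 members without CpG-island-like sequence at the gene start, together with MRPL24, MRPL37 and MRPS27, and these 3 were bound. Around canonical starts all 4 were CpG-island-like, as were 77 of 78 members (98.7%), against 67.0% of all protein-coding genes.

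The height of the summits was described by fold enrichment, the linear ratio of ChIP over local background that MACS gives, and by the percentile of that value among the 12139 bound protein-coding genes of the same replicate. Over the 77 bound members, fold enrichment ran from 14.8 to 77.9 in A, with a median of 36.7. In B1 the range was 9.06 to 41.2 around 23.8, and in B2 it was 8.45 to 36.8 around 21.4. Replicate A thus stood above the others for most members, with 75 of 77 higher in A than in the mean of B1 and B2, and the percentile puts the replicates on a common scale. Other bound protein-coding genes had medians of 33.3, 19.3 and 18.3. The members' median was higher in each replicate, by 0.14, 0.30 and 0.22 on the log2 scale, a mean of 0.22 ± 0.08 (SD, n = 3) or 1.17-fold. The mean exceeded the spread between replicates, but the exact two-sided sign-flip test over 3 replicates cannot go below p = 0.25, the value reached here. In all, 12 such differences were computed, and with Benjamini-Hochberg adjustment none of these exact tests gave an adjusted p below 0.3. 

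Few members were weak. Their median percentile was 63.2 ± 4.53 (SD, n = 3), and 52 of 77 lay above the 50th percentile by their mean. While 23 members lay above the 75th percentile, 3 lay under the 25th and 0 under the 10th. Only 7 exceeded the 90th. In the plot of fold enrichment spread by gene list, the lower tail of the members is shorter than that of other bound genes: the 5th percentile over genes was 22.6, 12.0 and 12.1 in A, B1 and B2, against 11.0, 6.82 and 6.48 over other bound genes, while the 95th percentiles were 57.6, 35.0 and 32.7 against 57.7, 35.6 and 34.2. The 5th percentile was 23.2, 13.7 and 12.5 over cytosolic ribosomal protein genes and 26.5, 13.0 and 14.0 over oxidative phosphorylation genes, at or above that of the members.

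**Figure D1:**
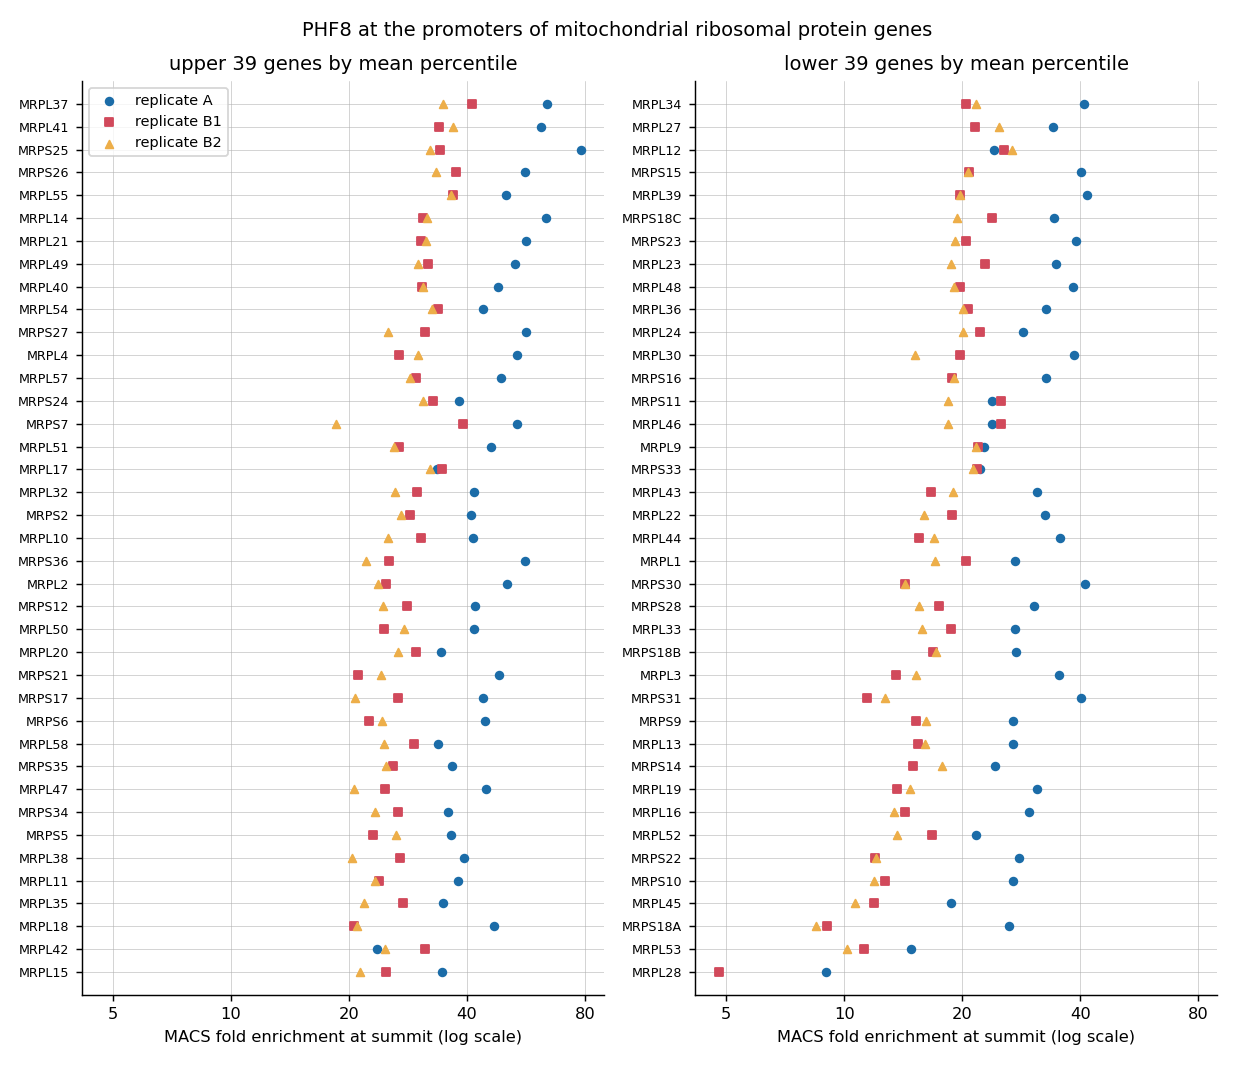
Fold enrichment at the strongest promoter summit (log scale, no unit) of each of the 78 genes, with 1 marker for each replicate and genes ordered by their mean percentile, the upper 39 on the left. Circles (replicate A) lie to the right of the other markers for most genes, MRPL37 stands at the top, and MRPL28 at the bottom has no marker for B2.

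MRPL37, a mitochondria-specific protein of the large subunit, led the list, with replicate values of 64.1, 41.2 and 34.7 and a mean percentile of 97.4 ± 1.70. The peak (chr1:54665313-54666290 in A) covered the canonical start. Its summit lay in a coding exon, 99 to 116 bp downstream of the gene's nearest TSS, which was not the canonical start. The gene record starts at 54649714, far upstream of this peak, so that MRPL37 lost its call when only that end was used. MRPL41 (mL41), a further mitochondria-specific large subunit protein, had 61.8, 33.8 and 36.8. MRPS25, a small subunit protein, had the highest single value of any member, 77.9 in A, followed by 34.1 and 32.1 in B1 and B2, on 199, 149 and 146 fragments. All 3 genes exceeded the 90th percentile in the mean, and each of their replicate values was above the members' median.

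The other members of the upper 10 came from both subunits. MRPS26, a small subunit protein without a bacterial counterpart, had values of 56.3, 37.6 and 33.3 and one of the broadest peaks, 1523, 1497 and 1310 bp. MRPL55 had 50.2, 36.7 and 36.4. MRPL14 and MRPL21, both of bacterial ancestry, had 63.7, 31.0 and 31.6, and 56.5, 30.5 and 31.4. These were followed by MRPL49 with 53.0, 31.8 and 29.9, whose promoter faces that of FAU, a gene for a protein of the cytosolic small subunit. MRPL40 had 47.9, 30.7 and 30.9. MRPL54 had 43.9, 33.8 and 32.5, although that summit lay nearer to a neighbouring gene than to MRPL54 itself, as described further on. Within this group the order between neighbours was not resolved, since mean percentiles from 87.0 to 97.4 carried SDs of 0.690 to 10.1.

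At the lower end, MRPL53, a large subunit protein, had a fold enrichment of 14.8, 11.3 and 10.2 on 43, 32 and 30 fragments. MRPS18A had 26.3, 9.06 and 8.45. MRPL45, which helps to hold the ribosome at the inner membrane beside the exit of the nascent chain, had 18.7, 11.9 and 10.6. MRPS10 had 26.9, 12.7 and 11.9, and MRPS22, a small subunit protein in which mutations cause mitochondrial disease, had 28.0, 12.0 and 12.1. All remained bound under a q-value below 0.001 and a fold enrichment above 4, but MRPS22 lost its call when the gene record's 5′ end was the sole TSS (chr3:138724648-139079339), as the peak in A lay at chr3:139062784-139063340. 

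Some members changed rank between replicates, and the local background, by which fold enrichment is divided, is given beside them. MRPL42 had 23.5, 31.2 and 24.7, ranks 72, 12 and 26 among the 77. Its summit held 117, 102 and 85 fragments over a local background of 4.02, 2.30 and 2.48. MRPL12 (bL12m), a protein of the stalk that receives translation factors, had 24.1, 25.6 and 26.8, ranks 69, 30 and 17, on 104, 90 and 85 fragments over 3.35, 2.55 and 2.20. MRPS7, a conserved small subunit protein, had 53.5, 38.9 and 18.6, ranks 10, 2 and 54, on 160, 114 and 100 fragments over 2.01, 1.95 and 4.44. In all 3 genes the replicate with the lowest rank had the highest local background, as in 29 of the 77 bound members. In others it did not: MRPL9 ranked 73, 44 and 37 over a background of 2.56, 2.60 and 2.74, and MRPS33 ranked 74, 45 and 38.5 over 1.57, 1.93 and 2.04. The part of the background in these ranks was not tested. A further example was MRPS31, with 40.1, 11.4 and 12.7 on 102, 59 and 68 fragments, over a background of 1.57, 4.25 and 4.44. MRPS18A, in the lower group, had 72, 62 and 45 fragments over 1.77, 5.96 and 4.44.

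The 3 human descendants of the bacterial S18 protein did not share a level of fold enrichment. MRPS18C had a fold enrichment of 34.2, 23.9 and 19.4, MRPS18B 27.5, 16.8 and 17.1, and MRPS18A the values given before. Mean percentiles were 58.3 ± 8.60, 40.0 ± 5.09 and 17.8 ± 12.4 (SD, n = 3), in this order, and MRPS18C exceeded MRPS18A in each replicate. The MRPS18B summit was nearer to a TSS of PPP1R10 than to its own in all 3 replicates. By fragments, MRPS18C had 102, 69 and 58 and MRPS18B 90, 73 and 77, so the order of these genes changed between replicates. MRPS12 (uS12m), a protein of the decoding site, had 41.9, 28.0 and 24.4, a mean percentile of 75.7 ± 5.45. MRPL58, which releases stalled peptides and is built into the large subunit, had 33.7, 29.3 and 24.5, a mean percentile of 70.1 ± 17.3.

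Members were next compared by subunit and by ancestry, the latter read from the prefix of the uniform protein name. Large subunit genes had medians of 35.4, 24.1 and 21.5 and small subunit genes 37.4, 22.8 and 20.7, so the sign differed between replicates (log2 0.02 ± 0.09, n = 3, exact sign-flip p = 0.75). By fragments the large subunit median was the higher in each replicate, 107.5, 78 and 76.5 against 105.5, 75 and 70.5. Genes for proteins with a bacterial counterpart, 45 of 46 of them bound, had medians of 34.7, 22.8 and 21.0. Mitochondria-specific ones, bound in 31 of 31 cases, had 39.0, 25.1 and 21.4. By their names (mL66 and mS40), MRPS18A and MRPS18B counted as mitochondria-specific, although both descend from bacterial S18. The difference was −0.11 ± 0.08 on the log2 scale (n = 3, exact sign-flip p = 0.25, the smallest possible), and with fragments in place of fold enrichment it was −0.00305. MRPS36, outside both classes, had 56.1, 25.3 and 22.1.

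Genes for the cytosolic ribosome and for the respiratory complexes were set beside the members. Of 85 cytosolic ribosomal protein genes, 80 were bound, with median fold enrichments of 38.1, 24.3 and 22.8 in A, B1 and B2. Members were lower by a small amount in each replicate (log2 −0.06 ± 0.03, n = 3, exact sign-flip p = 0.25). Of 84 nuclear genes for oxidative phosphorylation subunits, with which the mitochondrial ribosome's products assemble, 76 were bound, with medians of 37.8, 22.8 and 22.1, and the difference from members changed sign between replicates (−0.01 ± 0.06, n = 3, exact sign-flip p = 1). Those not bound included RPL10L, RPL3L, COX4I2, COX6A2, COX6B2, COX7A1, COX7B2 and COX8C. By fragments at the summit, members had medians of 108, 77 and 73 in A, B1 and B2. These lay below the 116, 80 and 78.5 of oxidative phosphorylation genes in each replicate.

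**Figure D2:**
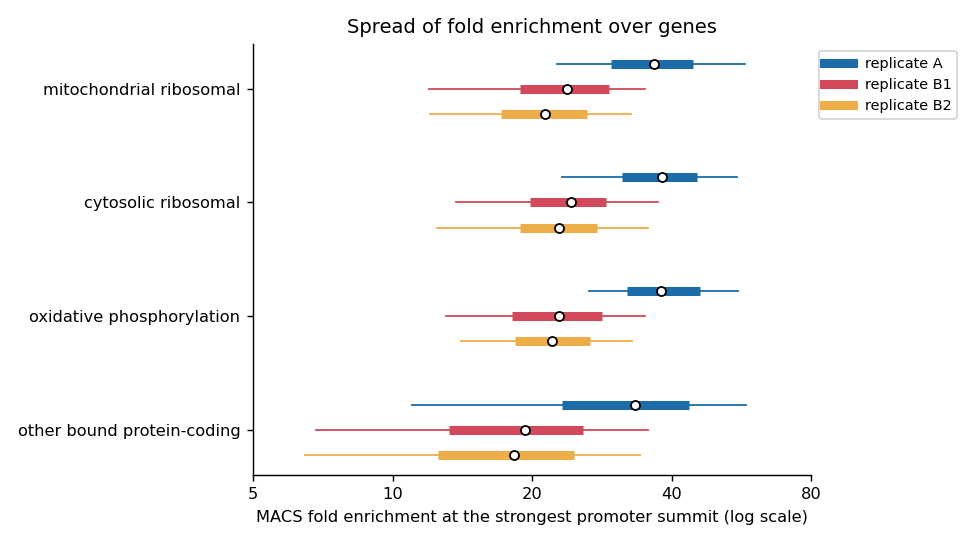
Fold enrichment at the strongest promoter summit (log scale, no unit) over the bound genes of 4 lists in replicates A, B1 and B2. Circles mark medians, thick bars the 25th to 75th and thin lines the 5th to 95th percentile over genes. Medians of the members, 36.7, 23.8 and 21.4, lie close to those of the cytosolic ribosomal and oxidative phosphorylation lists and right of those of other bound genes.

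The position of the summits was described next. Positions were measured from the nearest TSS of the gene, along its direction of transcription. The strongest summit lay downstream of the TSS in 55, 59 and 60 of the 77 bound members in A, B1 and B2, that is 71.4, 76.6 and 77.9%, with a mean of 75.3 ± 3.44% (SD, n = 3). Over other bound protein-coding genes the share was 65.9 ± 0.219%. The difference of 9.40 ± 3.27 percentage points was positive in each replicate (5.67, 10.8 and 11.7, exact sign-flip p = 0.25, the smallest possible). Oxidative phosphorylation genes had a share of 77.2 ± 2.01%, above the members in each replicate (−3.57, −1.01 and −1.03 points for members minus that list), and cytosolic ribosomal protein genes 70.0 ± 2.17%, below them in each (2.68, 4.12 and 9.17 points). Median positions were 78, 88 and 89 bp downstream, and 76, 73 and 75 bp over other bound protein-coding genes. A window of 50 to 150 bp downstream held the summit of 54.5, 63.6 and 61.0% of members, against 46.8, 45.0 and 45.6% of other bound genes, a window chosen after the profile had been seen. In replicate A, 37 of the summits lay in an intron of the canonical transcript, 21 in a coding exon, 4 in an untranslated exon and 15 outside it.

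**Figure D3:**
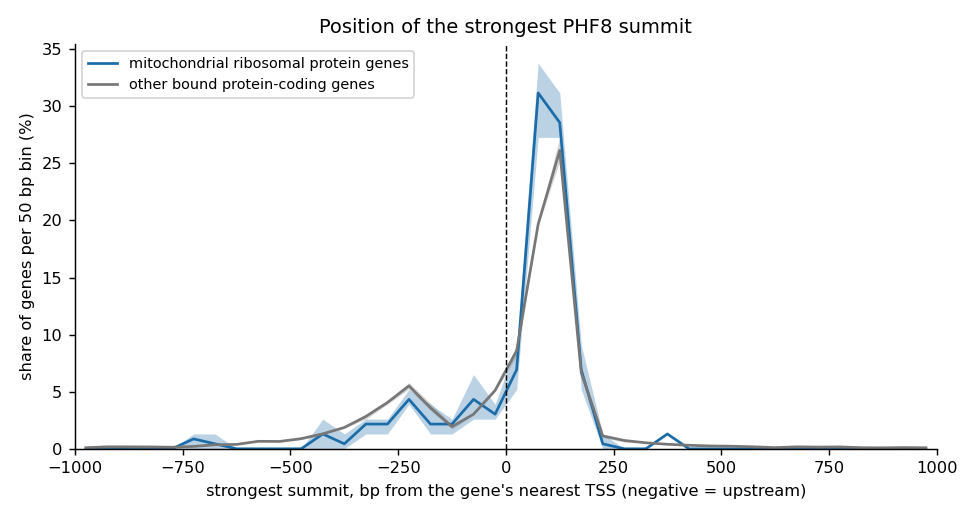
Share of genes (%) whose strongest summit falls in each 50 bp bin from the nearest TSS of the gene (bp, negative upstream), for the 77 bound members and for other bound protein-coding genes. Lines give the mean and shading the range over 3 replicates. Both lines peak downstream of the TSS, where the members' line is higher, and MRPL54, beyond 1000 bp upstream, is outside the axis.

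Many members share their promoter region with a gene transcribed the other way. Of the 78, 37 (47.4%) had an opposite-strand TSS belonging to a different gene no more than 1 kb upstream, against 44.7% of other bound protein-coding genes and 31.8% of all protein-coding genes. In 31 of the 37 the neighbour was protein-coding, and in 6 it was a long noncoding RNA only. All 40 neighbours were themselves bound, which their closeness nearly fixes, since 36 of the 40 pairs had the same strongest peak in all 3 replicates. The median distance between the starts of protein-coding pairs was 82 bp. Several partners serve mitochondria too: NDUFB5 and NDUFS6, subunits of complex I, face MRPL47 and MRPL36. TWNK, the mitochondrial DNA helicase, faces MRPL43, and SARS2, the mitochondrial seryl-tRNA synthetase, faces MRPS12. MRPL46 and MRPS11 are both members and lie 63 bp apart, head to head, so they shared a single strongest peak in each replicate, with the same fold enrichment of 23.9, 25.1 and 18.4. The 77 bound genes therefore had 76 distinct strongest peaks. In A this peak (chr15:89010804-89011263) had its summit 68 bp downstream of the nearest TSS of MRPS11. In B1 and B2 its summit lay 134 and 124 bp downstream of the nearest TSS of MRPL46.

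Members with a divergent neighbour had the higher enrichment, with medians of 41.0, 25.1 and 23.3 against 34.7, 21.5 and 20.5 without one (log2 0.22 ± 0.03, n = 3, exact sign-flip p = 0.25, the smallest possible). The same order held over other bound protein-coding genes, with 35.8, 21.1 and 20.0 against 30.9, 17.7 and 16.8. A peak shared by both genes of a divergent pair cannot be assigned to either. MRPL36 with NDUFS6 and MRPL40 with HIRA had the same strongest peak in 0 replicates. The MRPL36 summit lay 1711, 1708 and 1705 bp from a TSS of NDUFS6 in A, B1 and B2.

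The side of the summit was compared between both kinds of member. The strongest summit was downstream in all 3 replicates in 20 of 37 divergent members and in 31 of 40 others. It was upstream in all 3 in 7 and 4, and it changed side in 10 and 5. The downstream share was 64.9 ± 8.11% in divergent members and 85.0 ± 2.50% in the others. This difference of 20.1 ± 9.61 percentage points was positive in each replicate (28.2, 22.6 and 9.53, n = 3, exact sign-flip p = 0.25, the smallest possible). Over other bound protein-coding genes the shares were 57.4 ± 0.411% and 72.8 ± 0.352%.

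**Figure D4:**
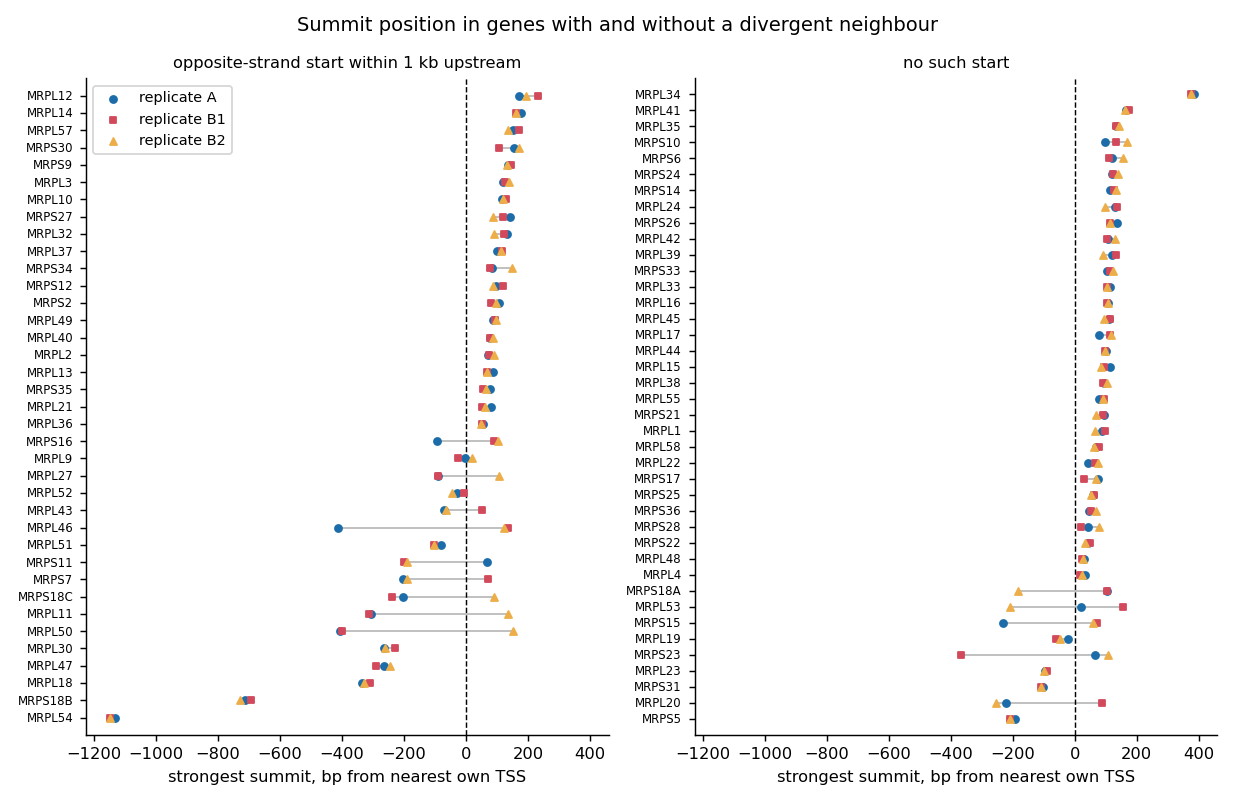
Position of the strongest summit (bp from the nearest TSS of the gene itself, negative upstream) in each of the 77 bound members and 3 replicates, for 37 genes with an opposite-strand start within 1 kb upstream and 40 without. Grey lines join the replicates of a gene. In 35 genes all 3 markers lie 50 to 150 bp downstream, while MRPL54 and MRPS18B lie far upstream and long grey lines mark genes whose strongest summit changed side.

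The members with the strongest summit farthest upstream were those whose neighbour lay under it. In MRPL54 the summit was 1131, 1148 and 1149 bp upstream in A, B1 and B2, and 19, 36 and 37 bp from a TSS of APBA3. In MRPS18B it was 713, 694 and 730 bp upstream and 116, 97 and 133 bp from PPP1R10. In MRPL18 it was 335, 310 and 330 bp upstream, and 95, 70 and 90 bp from TCP1, a gene for a subunit of the cytosolic chaperonin. MRPL47 (264, 290 and 244 bp) and MRPL30 (263, 229 and 262 bp) had it within 38 bp of a TSS of NDUFB5 and MITD1. In all 3 replicates the strongest summit of 10 members was nearer to a TSS of another gene than to one of their own. MRPL54 and MRPS18B depended most on the window: with peaks that reached within 500 bp of a TSS, mean percentiles were 49.4 in place of 87.0, and 29.5 in place of 40.0. 

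Far downstream summits were rarer. MRPL34, a conserved large subunit protein, had its strongest summit 384, 375 and 375 bp downstream of its nearest TSS and 174, 183 and 183 bp from a TSS of ABHD8. In all 3 replicates this summit (chr19:17414060 in A) lay outside the canonical MRPL34 transcript, upstream of its start at 17416681. MRPL12 followed with 170, 231 and 193 bp. MRPL41 had 165, 174 and 162 bp, MRPL14 176, 160 and 161 bp, and MRPL57 151, 170 and 136 bp. In these 5 genes the summit was downstream of the nearest TSS of the gene in every replicate.

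In 15 members the strongest summit was not on the same side in every replicate. In MRPL11, the strongest peak of A and B1 lay at a distant annotated start facing PELI3 (chr11:66233940-66234920 in A), and that of B2 at the canonical start (chr11:66205833-66206396). In MRPL50 the summit was 407 and 401 bp upstream in A and B1 and 152 bp downstream in B2. MRPS23 had it 66 and 108 bp downstream in A and B2 and 367 bp upstream in B1. In MRPS7 it was 203 and 191 bp upstream in A and B2, toward GGA3, and 70 bp downstream in B1.

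Peaks at member promoters were somewhat wider and less often split than elsewhere. The strongest peak had a median width of 871, 781 and 746 bp in A, B1 and B2, against 824, 720 and 673 bp over other bound protein-coding genes (log2 0.12 ± 0.03, n = 3, exact sign-flip p = 0.25, the smallest possible). A promoter with 2 or more separate peaks was found in 31.2, 35.1 and 36.4% of members, against 45.3, 48.5 and 47.7% of the others. The difference was −13.0 ± 1.43 percentage points (n = 3, exact sign-flip p = 0.25, the smallest possible). Members also had fewer annotated TSSs, a median of 5 against 7, and so a smaller region in which a second peak could be counted. The part of this in the difference was not tested. In 38 members a single peak was found in all 3 replicates, and in 16 there were at least 2 in all 3. Of those 16, MRPL2, MRPL16, MRPL17, MRPL45, MRPL51, MRPS14, MRPS18B, MRPS27, MRPS31 and MRPS33 had 2 in each replicate. MRPL18 had 3 in each, and MRPL34 had 4, 3 and 4. MRPL36 had 2, 4 and 3, MRPL54 3, 3 and 2, MRPS34 3, 2 and 3, and MRPL11 2, 2 and 3.

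Sequence at the gene starts was then compared, as a property that the naming rule does not use. Letters were searched on both strands within 250 bp of the 5′ end of each gene record, and a match describes letters, not binding. The YY1 letters AAGATGGC were present in 21 of 78 members (26.9%), against 6.52% of other bound and 4.79% of all protein-coding genes. With the start of the canonical transcript in place of the gene record, the shares were 29.5, 7.29 and 5.26%. On the gene's own strand and within 40 bases downstream of the canonical start, a window chosen after the positions had been seen, the letters stood in 17 members (21.8%), 3.47% of other bound and 2.28% of all protein-coding genes. The match began 6 to 35 bases after the first transcribed base, with a median of 16. In 14 of these 17 the ATG within the match was the annotated start codon, as in all shown promoters except MRPL42. In MRPL20, MRPL42 and MRPL51 the start codon lay elsewhere.

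Members with and without the YY1 letters were compared for their level. The 23 bound members with a match around the canonical start had median fold enrichments of 38.1, 25.3 and 20.5 in A, B1 and B2, and the 54 without had 36.6, 22.4 and 21.4. The order differed between replicates, and the shown promoters with the match range from the upper to the lowest members.

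Letters of other factors and promoter elements were counted in the same way. The ETS or GABPA letters CCGGAAGT stood in 10 of 78 members (12.8%), against 9.19% of other bound and 5.90% of all protein-coding genes. The NRF1 core CGCATGCG, which reads the same on both strands, stood in 5 (6.41%), against 4.39 and 2.91%. The SP or KLF letters GGGGCGG stood in 47.4%, against 56.7 and 45.1%, the E-box CACGTG in 12.8%, against 12.9 and 11.1%, and the TATA box letters TATAAA in 7.69%, against 8.57 and 14.0%. The cAMP response element TGACGTCA was found in 0 of 78, against 3.36 and 2.55%, and in 1.28% of members around canonical starts. None of these letter strings contains another. Member starts were also less rich in G and C than those of other bound genes, with a median of 61.2% against 64.5%, and around the summits in A with 62.7% against 68.5%.

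**Figure D5:**
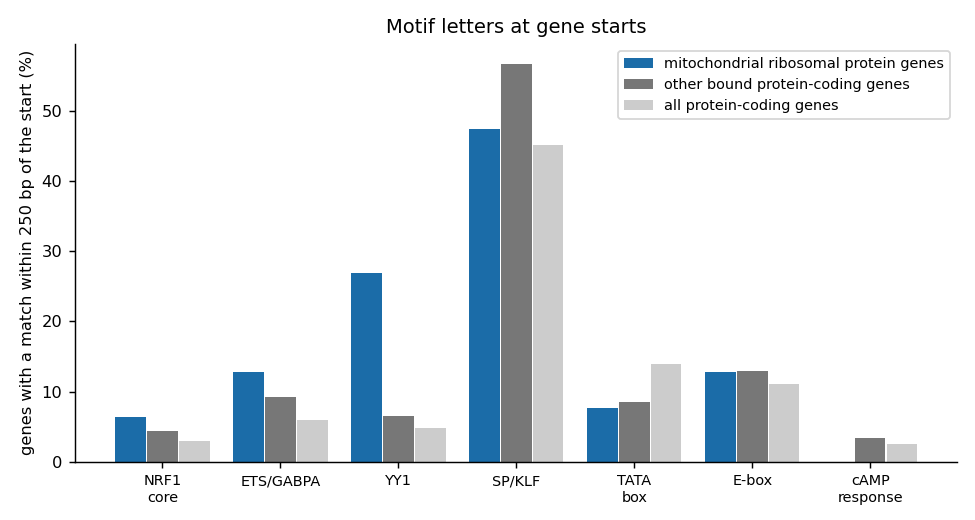
Share of genes (%) with each motif's letters on either strand within 250 bp of the gene start, for the 78 members, other bound protein-coding genes and all protein-coding genes. The YY1 letters stand in 26.9% of members against 6.52 and 4.79% of the other sets, while the SP or KLF letters stand in 47.4% of members against 56.7 and 45.1%.

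Repeated matches are shown for 2 members and a mixed pair for another, with the matches in capitals. MRPL17 held the NRF1 core in 2 places upstream of its start, and had a fold enrichment of 33.5, 34.6 and 32.3. MRPL27 held the ETS letters in 2 places and had 34.0, 21.6 and 24.8. MRPL47, which faces NDUFB5, held the YY1 letters on the opposite strand and the ETS letters on its own.
MRPL17 (chr11:6704562-6704681, minus strand): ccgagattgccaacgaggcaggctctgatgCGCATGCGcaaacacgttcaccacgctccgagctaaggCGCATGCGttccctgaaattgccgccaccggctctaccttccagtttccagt
MRPL27 (chr17:48450516-48450625, minus strand): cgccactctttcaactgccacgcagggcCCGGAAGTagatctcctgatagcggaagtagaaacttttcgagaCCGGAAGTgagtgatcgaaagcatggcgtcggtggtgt
MRPL47 (chr3:179322397-179322546, minus strand): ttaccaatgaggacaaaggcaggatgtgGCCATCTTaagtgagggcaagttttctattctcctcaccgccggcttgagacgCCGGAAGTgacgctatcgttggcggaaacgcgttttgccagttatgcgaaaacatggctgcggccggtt

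Genes that work with the mitochondrial ribosome under other names were read in the same way. Of 54 such genes in 4 lists, 53 were bound, beside the 60.2% of all protein-coding genes, and their median percentile was 73.7 ± 5.11 (SD, n = 3). All 5 ribosomal proteins without an MRP symbol were bound, among them PTCD3 with a fold enrichment of 32.1, 27.3 and 24.8, and DAP3, a GTP-binding protein of the small subunit, with 42.8, 30.6 and 29.5. All 23 genes for assembly and rRNA modification were bound, with medians of 39.7, 25.9 and 25.0. MTERF3 had 60.4, 40.2 and 33.5, and GTPBP10, a GTPase of large subunit assembly, had 25.3, 9.76 and 8.09.

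The 15 genes for translation factors and related proteins, all bound, held the widest range. MTRFR, which takes part in rescue of stalled mitochondrial ribosomes like MRPL58, had 67.8, 47.0 and 46.9, a mean percentile of 99.6 ± 0.170. MTFMT, which formylates the initiator methionyl-tRNA, had 60.8, 43.0 and 42.4. MTRF1, a release factor, had 8.96, 9.21 and 5.26, a mean percentile of 5.51 ± 5.19. The release factor therefore stood below every bound member in each of the replicates A and B2, and MTRFR above every member in B1 and B2.

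Among 11 genes for transcription of mitochondrial DNA or for regulators of nuclear genes for mitochondria, 10 were bound. TFAM, which packages mitochondrial DNA, had 56.5, 30.5 and 33.0, NRF1 51.0, 33.8 and 28.9, and GABPA 38.2, 16.4 and 19.1. YY1 itself had 34.0, 21.6 and 19.4. The exception was PPARGC1A, which encodes the coactivator PGC-1 alpha, with no promoter peak in any of the 3 replicates, while its relatives PPRC1 and PPARGC1B had 35.9, 34.1 and 29.2, and 17.8, 8.16 and 10.5.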

How the data were processed

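PHF8 ChIP-seq of SKMEL-147 cells was analysed from 3 peak lists. The authors aligned reads to hg19 with Bowtie2 and called narrow peaks with MACS, replicate by replicate against input. Duplicate handling and read totals are not given in the sources used here. Each deposited list gives fold enrichment (a linear ratio of ChIP over local background at the summit), p-value and q-value as −log10 values, a score derived from the q-value, and the summit offset. The study's methods print the q cutoff as above 0.05, which would keep non-significant peaks, and it was read here in the reverse direction, as below 0.05. A fold enrichment above 1.5 was required. Inputs were not analysed on their own. No other per-sample columns were present.

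Fragments at the summit and local background were recovered from the deposited fold enrichment and −log10 p-value, under the Poisson model of MACS, within 0.001 for 100% of peaks. They cover counting error only. A gene's strongest peak within 1 kb of any TSS (GENCODE 44 lifted to GRCh37) was used. Lists were compared by medians per replicate with an exact two-sided sign-flip test over 3 replicates. CpG-island-like sequence and motif letters were taken from the GRCh37 genome. Scripts (Python 3.11.15, pandas 2.3.3, numpy 2.4.6, scipy 1.17.1) were tested on simulated data.

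Members and lists were chosen with earlier results of these data known. Named genes were the 10 highest and 5 lowest bound members by mean percentile, members not bound in all replicates, those with 2 or more peaks in every replicate, the 5 farthest upstream and 5 farthest downstream summits, the 3 largest rank differences, members that lost a call, and MRPS12, MRPL12, MRPS18A, MRPS18B, MRPS18C and MRPL58. Others named in the text were chosen after their values were seen. Alternatives covered cutoffs, TSS window and set, replicates required and each replicate left out.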

Additional observations from a re-analysis of the deposited data

How the results depend on the processing

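The number of bound members was 77 under stricter cutoffs (q-value below 0.001, fold enrichment above 4), under windows of 500 bp and 2 kb, and with the summit inside the window. It was 75 with 1 TSS per gene, which lost MRPL37 and MRPS22, and 78 with a peak in at least 2 replicates or without replicate B2, which gained MRPL28. Among members with no opposite-strand TSS within 2 kb, 35 of 36 were bound. The downstream share was 82.7% with 1 TSS per gene and 84.8% over members with no opposite-strand TSS within 2 kb, and ran from 73.7 to 77.3% with a replicate left out. The level of members over other bound genes ran from 0.17 to 0.26 (log2) over all alternatives, the divergent difference from 0.18 to 0.28 and the width difference from 0.10 to 0.14.

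Further alternatives were chosen after seeing the data. The difference between large and small subunit genes, 0.02 (log2), was −0.00296 both with a window of 500 bp and with the summit inside the window, −0.0328 with 1 TSS per gene, and −0.0110 to 0.0700 with a replicate left out. It was negative without B1 (−0.0110) and without B2 (−0.00742). The difference from oxidative phosphorylation genes ran from −0.0467 to 0.00502 with a replicate left out, the latter without A. With fragments in place of fold enrichment it was −0.0877 ± 0.0282 (SD, n = 3), negative in each replicate. By fragments the difference between large and small subunit genes was 0.0672 ± 0.0463, positive in each replicate. The cause of these changes was not tested. No paired analysis was possible because the inputs have no peak lists and there is 1 group of ChIP samples. With 3 replicates no sign-flip test can pass 0.05, and peak lists give no level for a promoter without a peak.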
